A study of Rattus norvegicus with 6 samples.

Results

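In all, 9 genes of the cartilage programme were examined: the transcription factors Sox5, Sox6 and Sox9, and the matrix genes Acan, Comp, Hapln1, Prg4, Matn2 and Chad. They were found by gene name among the 34912 names on the array and carried 17 of its 45598 distinct probes, 9 of them on the 3 SOX genes. The cells were rat bone marrow stromal cells, adherent cells from tibia marrow, which can turn into chondrocytes as well as bone and fat cells. The Ta group held 3 cultures kept for 7 days on titanium whose surface carried tantalum, and the Ti group 3 cultures kept as long on plain titanium. Each culture was measured on 1 Agilent array of 1 colour. Per the series' design text, these were independent experiments. The treatment text of the Ti samples names the Ta surface, whereas their title, description and culture label name Ti, and these last labels were used. The comparison addresses how gene expression in these cells depends on the surface.

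SOX9 is the transcription factor that starts and maintains the chondrocyte programme, and SOX5 and SOX6 are related proteins that bind next to it and strengthen its action on cartilage genes. Among the matrix genes, Acan codes for aggrecan, the large proteoglycan that holds water in cartilage, and Hapln1 for the link protein that fixes aggrecan to hyaluronan. Comp, Matn2 and Chad code for proteins that connect collagen fibrils with other matrix, and Prg4 for lubricin, the lubricant of joint surfaces. Marrow stromal cells can enter this programme, but Sox9 and several of the matrix genes are also active in other connective tissue cells.

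By array, 62.7% to 65.9% of spots were well above background. The 75th percentile of processed signal ran from 1848 to 2388 and was highest on Ti replicate 1. Values were scaled to a common percentile before any comparison. All arrays lay on 1 slide, with the Ta arrays and Ti replicate 1 in slide row 1 and the other Ti arrays in row 2. The cartilage label of the genes holds only in part for these cells. Col2a1, Col11a2 and Snorc were well above background on all 6 arrays, whereas Col9a1, Matn1, Matn3 and Cnmd were so on 0 arrays. In bulk RNA, fewer cells of a type and less RNA per cell cannot be told apart.

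The probes on which the main results rest are given first, each 60 bases long and written 5′ to 3′ in lower case as on the array. The first belongs to Sox5, and the following 2 belong to Sox9 and differed in direction. The last 2 belong to Comp, the tested matrix gene with the largest difference, and to Acan, whose product the link protein Hapln1 binds. Positions are those of the array design, build rn4.
Sox5 base 2309: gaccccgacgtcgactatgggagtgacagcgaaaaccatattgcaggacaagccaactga
Sox9 base 1508: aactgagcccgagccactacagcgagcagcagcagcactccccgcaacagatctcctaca
Sox9 base 1605: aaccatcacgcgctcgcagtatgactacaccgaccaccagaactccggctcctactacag
Acan base 6366: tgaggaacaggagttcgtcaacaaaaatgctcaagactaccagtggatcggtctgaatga
Comp base 2201: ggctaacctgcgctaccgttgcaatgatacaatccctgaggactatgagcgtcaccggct
A probe is called here by the base of the design transcript at which it starts. The Sox5 probe lies at chr4:180399384-180399443 on the minus strand. The Sox9 probes lie at chr10:102388891-102388950 and chr10:102388988-102389047 on the plus strand, with 37 bases between them. The Acan probe spans chr1:134846027-134846595 on the plus strand, which is longer than the probe itself, and the file gives no position for the Comp probe.

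Of the 17 probes, 8 were well above background on all 6 arrays, 8 on 1 to 5 arrays, and 1 on no array (a Matn2 probe). A gene entered the test through its brightest probe that was well above background on at least 3 arrays, which left 7 of the 9 genes and left out Acan and Chad. The filter favours a difference at a gene that passes it through the group where it is high, as Hapln1 did. Counts over the 7 genes therefore describe them and test nothing. Ti replicate 1 was the highest of the 6 arrays at 11 of the 17 probes, and a Ta array was the highest at 2.

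**Figure D1:**
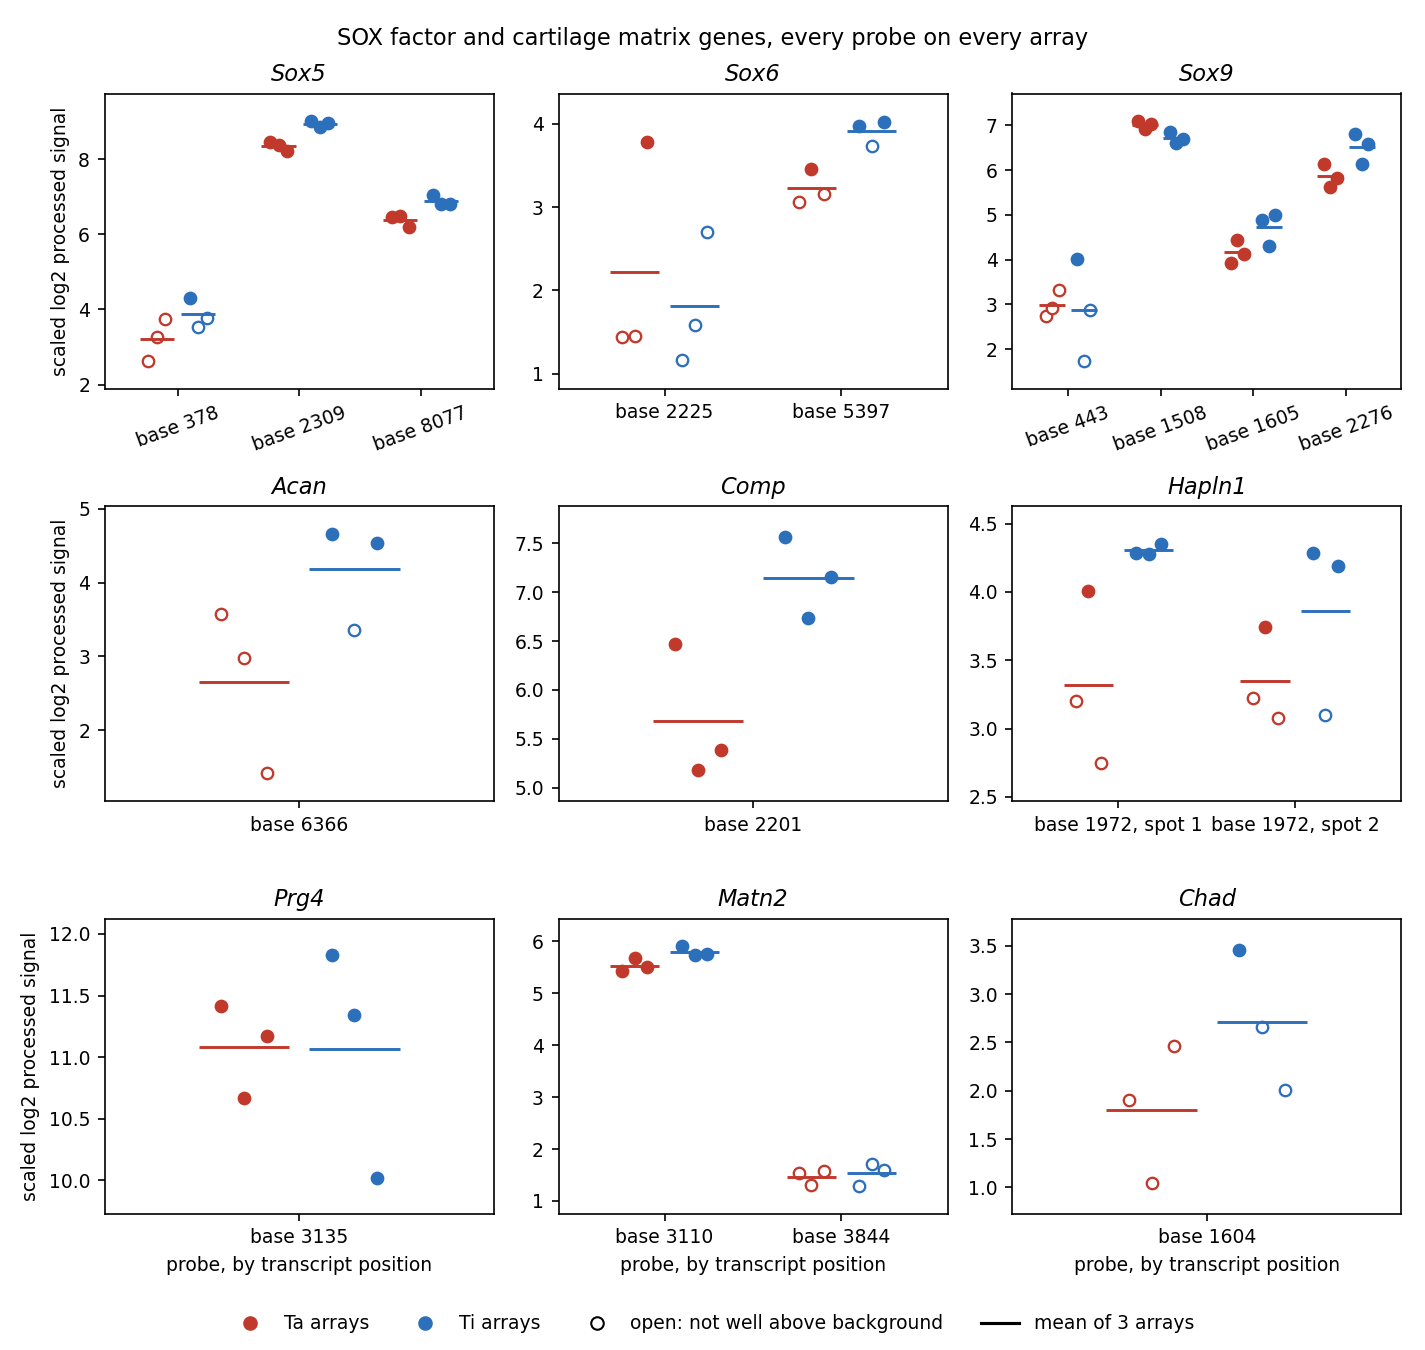
Scaled log2 processed signal (vertical axes, a separate range per gene) of all 17 probes on the 3 Ta arrays (red, left) and 3 Ti arrays (blue, right), with the probe's transcript position on the horizontal axis. Open points were not well above background and bars are means of 3 arrays. At 7 of the 11 tested probes, among them Sox5 bases 2309 and 8077, Comp and Matn2 base 3110, all Ta arrays lie below all Ti arrays, and at Sox9 base 1508 they lie above.

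Sox5 fell on Ta and was the only one of the 7 tested genes past the test. At base 2309 the scaled log2 signal was 8.46, 8.37 and 8.20 on the Ta arrays, against 9.01, 8.85 and 8.95 on the Ti arrays. Every Ta array was below every Ti array, and the gap between the groups was wider than the range within either. The mean was 8.34 ± 0.13 on Ta and 8.94 ± 0.08 on Ti (SD, n = 3 each). The log2 difference, Ta minus Ti here and throughout, was -0.59 (limma standard error 0.10, 95% interval -0.83 to -0.35), or 0.664-fold. The limma adjusted p was 0.0439, at a threshold of 0.05 and with adjustment over 19755 genes. By p, Sox5 stood 382nd among those genes.

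That 1 of 7 genes was called lower compares with 1.45% of all tested genes called lower, 2.67% called higher and 4.12% called in either direction. At the level of probes, 1 of the 11 tested probes of these genes was called lower, against 1.49% of 25774 tested probes. The Sox5 call was lost when Ta replicate 2 (adjusted p = 0.165), Ta replicate 3 (0.130), Ti replicate 1 (0.135) or Ti replicate 3 (0.164) was left out. It was also lost without a filter on dim probes (0.122), with the replicate block (0.0877) and with a slide row block (0.192), where only Ti replicate 1 is left to compare with the Ta arrays. The difference itself stayed between -0.66 and -0.49 over the 18 alternatives.

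A second Sox5 probe, at base 8077 of a longer transcript, gave a similar picture. Its log2 signal was 6.45, 6.49 and 6.19 on Ta arrays, against 7.03, 6.80 and 6.80 on Ti arrays. The groups did not overlap here either, and the difference was -0.50 (standard error 0.12, limma adjusted p over all probes 0.0657). The log2 ratio between the signals of the 2 probes changed by -0.09 between the groups (exact permutation p = 0.4, two-sided, 20 splits), and the ratios of Ta and Ti arrays overlapped. The remaining Sox5 probe, at base 378, had a signal well above background on no Ta array (0 of 3) and on 1 of 3 Ti arrays. It read 2.63, 3.27 and 3.75 on Ta arrays, against 4.30, 3.54 and 3.76 on Ti arrays, with an overlap. No fold is given for this probe.

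Sox6 lay at the edge of detection. Its probe at base 5397 read 3.07, 3.46 and 3.16 on Ta arrays, against 3.98, 3.74 and 4.02 on Ti arrays. The groups did not overlap, and the difference was -0.68 (standard error 0.14, 95% interval -1.02 to -0.35, limma adjusted p = 0.0517). Before scaling and logs, these signals were 8.06, 10.6 and 8.03 units on Ta and 18.3, 13.3 and 16.9 units on Ti, and the lowest signal counted as well above background was 9.94 to 14.0 units by array. The probe was well above background on 1 Ta array and 2 Ti arrays. With normexp background correction and an offset of 50, which compresses dim values, the difference was 0.0036 (adjusted p = 0.976). With quantile scaling it passed the test (adjusted p = 0.0458), as it did with median scaling (0.0466). The other Sox6 probe, at base 2225, was well above background on 1 of the 6 arrays, Ta replicate 3, and was not tested.

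Sox9 read in opposite directions at probes that lie close together. At base 1508, its brightest probe, the log2 signal was 7.09, 6.93 and 7.02 on Ta arrays, against 6.85, 6.61 and 6.68 on Ti arrays. Every Ta array was above every Ti array, and the difference was 0.30 (standard error 0.10, 95% interval 0.06 to 0.53, limma adjusted p = 0.108). That order of the arrays held for 19.5% of all tested genes. At base 1605, the signal was 3.92, 4.45 and 4.13 on Ta arrays, against 4.88, 4.30 and 4.99 on Ti arrays, and Ta replicate 2 lay above Ti replicate 2.

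The difference at Sox9 base 1605 was -0.56 (standard error 0.22, limma adjusted p over all probes 0.159). At base 2276, every Ta array was below every Ti array, with 6.13, 5.63 and 5.82 on Ta against 6.81, 6.13 and 6.58 on Ti. The difference there was -0.65 (standard error 0.21, adjusted p over all probes 0.107). Ta replicate 1 and Ti replicate 2 differed only beyond the second decimal at this probe. These 3 probes lie on 1 stretch of genome without a gap between transcript and genome spacing, and all 3 were well above background on all 6 arrays.

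The log2 ratio of the Sox9 signal at base 1508 to that at base 1605 was 3.17, 2.48 and 2.89 on Ta arrays, against 1.97, 2.31 and 1.70 on Ti arrays. The ratio was higher on every Ta array, by 0.85 on average, and the exact permutation p was 0.1, the smallest that 20 splits allow. Against base 2276 the ratio was 0.96, 1.30 and 1.20 on Ta arrays and 0.04, 0.48 and 0.10 on Ti arrays, a change of 0.95 (exact permutation p = 0.1). Between the probes at bases 1605 and 2276 the ratio changed by 0.09 (exact permutation p = 0.8). With the mean of its 3 filtered probes in place of the brightest, the Sox9 difference was -0.30 (adjusted p = 0.212). The fourth probe, at base 443, was well above background on 1 array, Ti replicate 1. No direction is therefore given for Sox9.

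**Figure D2:**
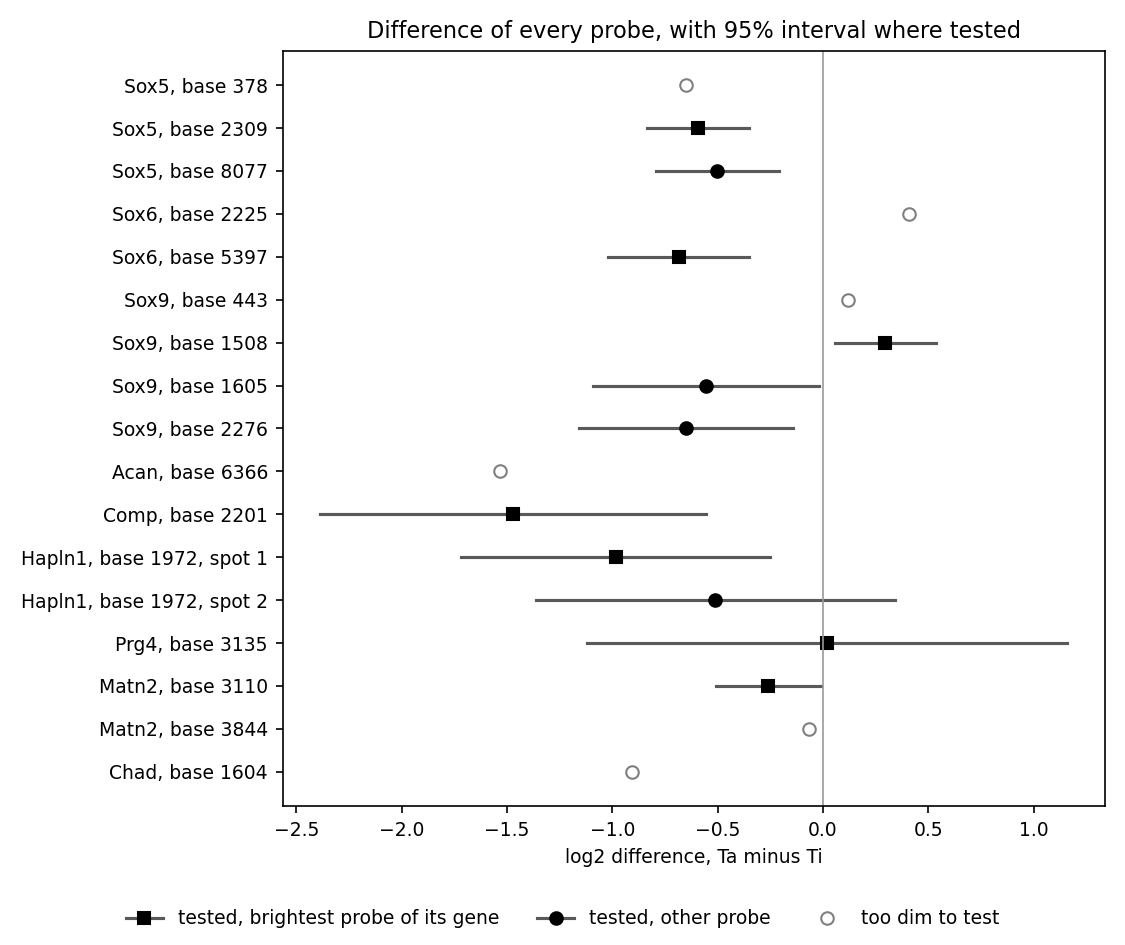
Log2 difference, Ta minus Ti (horizontal axis), of each of the 17 probes (vertical axis, gene and transcript position), with the 95% limma interval for the 11 tested probes. Squares are the probes that stood for their gene, circles other tested probes, and open circles probes too dim to test. Sox9 base 1508 at 0.30 stands right of 0, and Sox9 bases 1605 and 2276 at -0.56 and -0.65 stand left of it.

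Among the matrix genes, Comp had the largest difference of those tested and did not pass the test. Its only probe read 6.47, 5.18 and 5.39 on Ta arrays, against 7.56, 6.74 and 7.15 on Ti arrays. Every Ta array was below every Ti array, with Ta replicate 1 nearest to the Ti arrays. The SD was 0.692 among Ta arrays and 0.414 among Ti arrays. The difference was -1.47 (standard error 0.38, 95% interval -2.39 to -0.55), or 0.36-fold, with a limma adjusted p of 0.0725. Without Ta replicate 1 the difference was -1.87 and passed the test (adjusted p = 0.0147).

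Hapln1 was measured by 2 probes of identical sequence, which show how far 2 spots of 1 sequence can differ on 1 array. The first spot read 3.21, 4.01 and 2.75 on Ta arrays, against 4.29, 4.28 and 4.35 on Ti arrays. The second read 3.22, 3.74 and 3.08 on Ta arrays, against 4.29, 3.10 and 4.19 on Ti arrays. The 2 spots lay within 0.33 of each other on 5 arrays but 1.18 apart on Ti replicate 2. The groups did not overlap at the first spot, and at the second Ti replicate 2 lay among the Ta arrays. Well above background were 1 Ta array and 3 Ti arrays at the first spot, and 1 Ta array and 2 Ti arrays at the second. At the first spot the Ti arrays, which were higher, sufficed for the filter, so its difference is not separate from the filter.

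The first Hapln1 spot, which stood for the gene, gave a difference of -0.98 (standard error 0.30, limma adjusted p = 0.097), and the second gave -0.51 (standard error 0.35, adjusted p over all probes 0.375). With both averaged, the difference was -0.75 (adjusted p = 0.149). Acan, the proteoglycan partner of the link protein, was too dim to test. Its probe read 3.57, 2.98 and 1.41 on Ta arrays, against 4.66, 3.35 and 4.54 on Ti arrays, and Ta replicate 1 lay above Ti replicate 2. None of the 3 Ta arrays (0), but Ti replicates 1 and 3, had it well above background. No fold is given for Acan.

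Prg4 was far above background on every array and gave no difference that the arrays could resolve. Its log2 signal was 11.41, 10.67 and 11.17 on Ta arrays, against 11.83, 11.34 and 10.02 on Ti arrays. The Ti arrays enclosed the Ta arrays, with an SD of 0.378 on Ta and 0.938 on Ti. The difference was 0.02 (standard error 0.47, limma adjusted p = 0.981), and its 95% interval of -1.13 to 1.17 leaves room for a change in either direction. Without Ti replicate 3, the lowest array, it was -0.50 (adjusted p = 0.36).

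Matn2 differed little. At base 3110 its signal was 5.42, 5.68 and 5.51 on Ta arrays, against 5.90, 5.73 and 5.75 on Ti arrays. Every Ta array was below every Ti array, Ta replicate 2 by the least, and the difference was -0.26 (standard error 0.10, limma adjusted p = 0.152). Its other probe, at base 3844, was well above background on 0 arrays. Chad read 1.91, 1.05 and 2.46 on Ta arrays, against 3.46, 2.66 and 2.01 on Ti arrays, with an overlap. Only Ti replicate 1 had Chad well above background, and no fold is given for it.

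Over the 7 tested genes, 5 had every Ta array below every Ti array and 1, Sox9, had every Ta array above. Among all tested genes 16.3% had every Ta array below every Ti array. Counted by probe, 7 of the 11 tested probes had every Ta array below every Ti array, against 15.4% of all tested probes. The median difference of the 7 genes was -0.59, beside 0.03 over all 19755 genes. With normexp background correction the Hapln1 difference was -0.05 and that of Matn2 -0.03, while Sox5 stood at -0.49 (adjusted p = 0.0188) and Comp at -0.77 (0.0371). With every value raised to the lowest signal well above background on its array, Sox6 differed by -0.36 (adjusted p = 0.0713) and Hapln1 by -0.55 (0.0549).

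**Figure D3:**
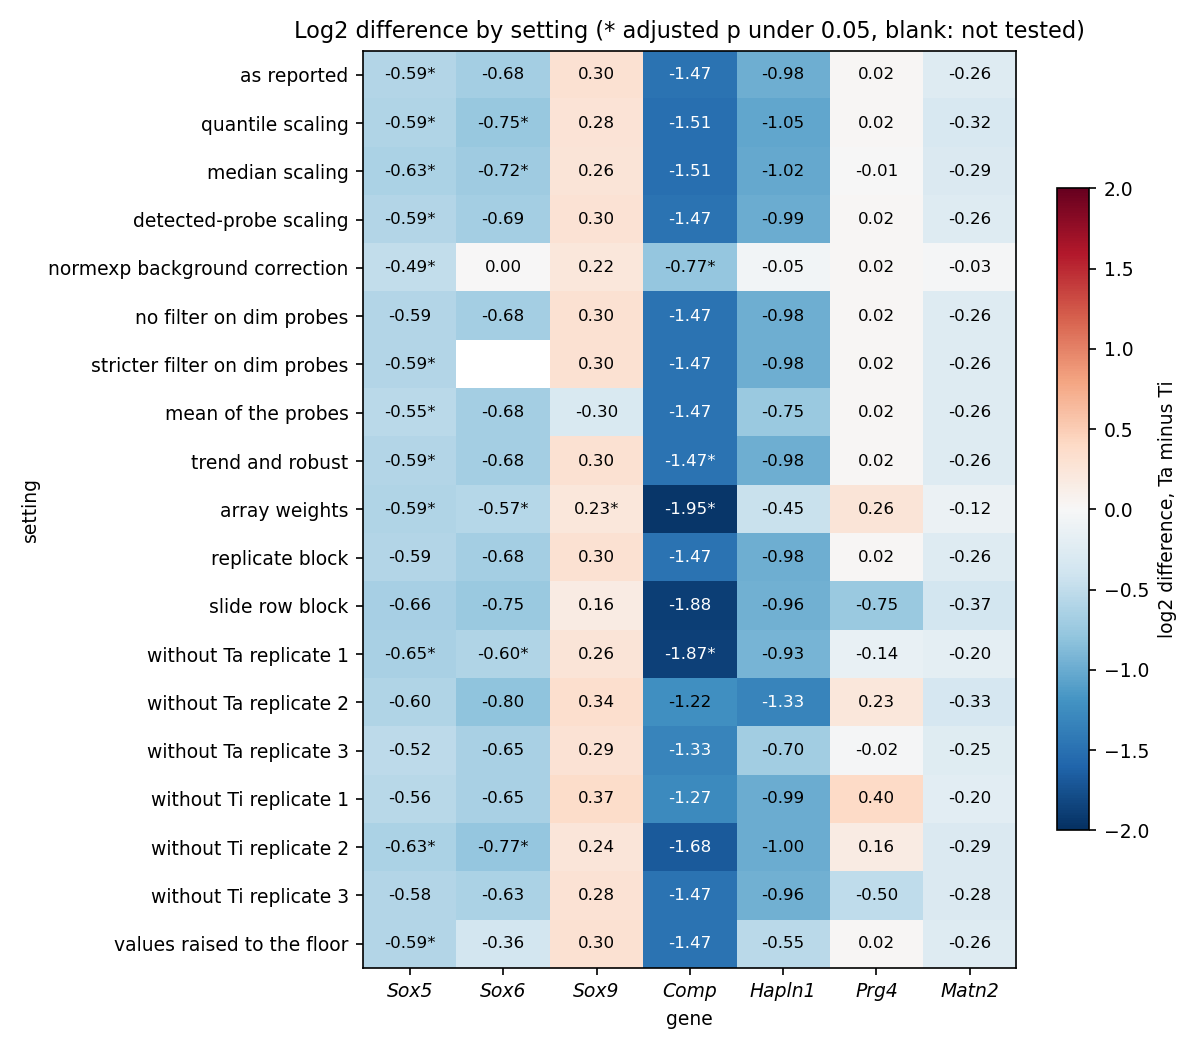
Log2 difference, Ta minus Ti, of the 7 tested genes (columns) as reported and under each alternative (one line each), with colour and figures giving the value and an asterisk an adjusted p under 0.05. Sox5 stays between -0.66 and -0.49, Prg4 changes sign, and Sox6 and Hapln1 lie near 0 with normexp background correction.

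Levels of other genes that follow the same order of arrays were compared by Pearson correlation over the 6 arrays, as a description. The genes most like Sox5 were Fuca2, Mapk8 and Msantd2, each with r = 0.997, and 693 genes had r above 0.95. Those most like Comp were B4galt4 and C7h12orf75 (r = 0.998) and Eml6 (0.997), among 679 genes above 0.95. Those most like the brightest Sox9 probe were Spcs2, Slc22a5 and Rhbdl1, with r from 0.980 to 0.982, and 63 genes had r above 0.95. With 6 arrays in 2 groups, genes that differ between the groups in the same direction tend to correlate.

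The other genes of cartilage were taken list by list. Over all tested genes 1.45% were called lower and 2.67% higher, the shares to set beside each count below. Of 8 cartilage collagens 5 were tested and 0 passed by limma, although all 5 had every Ta array below every Ti array, as did 16.3% of all tested genes. An unadjusted p under 0.05 was found for 5 of the 5, against 29.9% of all tested genes. Col11a1, a chain of the thin cartilage fibril, differed by -0.59 (limma adjusted p = 0.0541), and Col11a2 by -0.61 (0.0829). Col2a1, the main cartilage collagen, read 5.41, 5.13 and 5.27 on Ta arrays, against 5.82, 5.45 and 5.65 on Ti arrays (difference -0.37, adjusted p = 0.12). The median of the 5 was -0.59.

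Of 30 other cartilage matrix and secreted genes 18 were tested, of which 3 fell, 1 rose and 14 did not pass, with a median of 0.07. Fmod, which codes for the collagen-binding proteoglycan fibromodulin, fell by 1.44 on the log2 scale (limma adjusted p = 0.0396). Ucma, a small secreted cartilage protein, fell by 1.02 (0.0453). Susd5 fell by 1.24 at its brightest probe (0.0488), and its other probe gave -0.32. Bcan, the brain proteoglycan brevican, rose by 0.65 (0.0408).

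Of the 4 thrombospondins, the protein family to which Comp belongs, Thbs1 fell by 0.61 (limma adjusted p = 0.0396) and 3 did not pass. Thbs4, a close relative of Comp, read 10.06, 6.73 and 5.08 on Ta arrays, against 10.79, 10.73 and 10.59 on Ti arrays. Its difference was -3.42 (standard error 1.18, adjusted p = 0.118), with the Ta arrays far apart. Of 17 other SOX genes 7 were tested and 0 passed by limma, with Sox4 at 0.43 (adjusted p = 0.174) and Sox10 at -0.26 (0.306). Their median was 0.04, and 0 of the 7 had an unadjusted p under 0.05, against 29.9% of all tested genes.

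Among 24 tested regulators of chondrocyte fate, 1 fell and 1 rose. Nog, which codes for the BMP antagonist noggin, rose by 0.98 (limma adjusted p = 0.0424), from signals well above background on 3 Ta arrays and 1 Ti array. The Ta arrays, where Nog was higher, sufficed for the filter, so the Nog call is not separate from the filter. Nfatc2, a transcription factor of the calcineurin pathway and the 1 that fell, had no Ta array (0) but 3 Ti arrays well above background and was at least 2.26-fold lower on Ta (adjusted p = 0.0396). It entered the test through the Ti arrays alone, so its call is not separate from the filter. Of 28 tested genes that build chondroitin and keratan sulphate chains, the sugars carried by aggrecan, Slc26a2, a sulphate transporter, rose by 0.93 (0.0424) and Chsy1, a chondroitin synthase, fell by 0.43 (0.0453).

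Of 12 tested proteases that act on aggrecan and cartilage, 2 fell and 10 did not pass. Adamts12 fell by 0.93 and Adamts1 by 0.62 (limma adjusted p = 0.0396 each). The main aggrecanases Adamts4 and Adamts5 differed by 0.50 (adjusted p = 0.0624) and 0.10 (0.548).

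**Figure D4:**
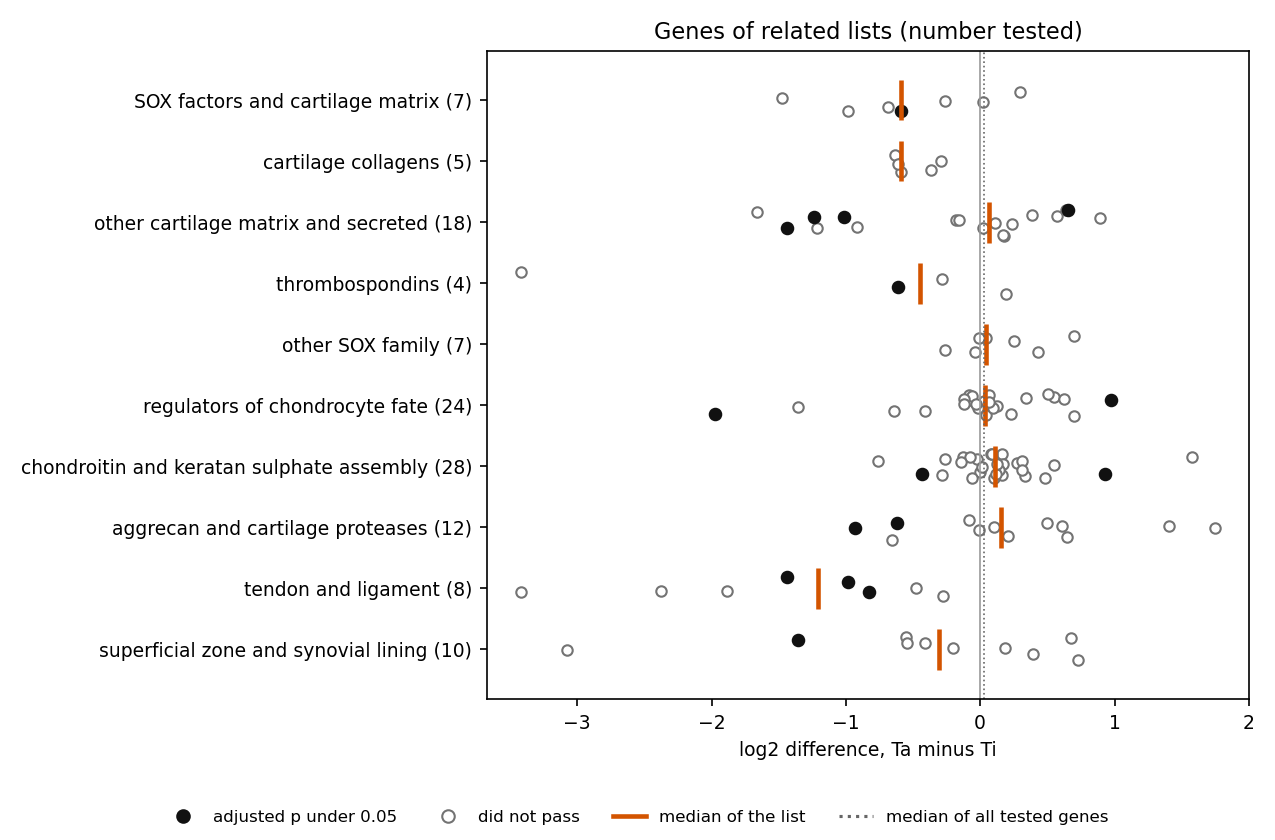
Log2 difference, Ta minus Ti (horizontal axis), of the tested genes in each related list (vertical axis, number tested), with genes past the test filled and list medians in orange. The 8 tendon genes and the 5 cartilage collagens all lie below 0, as do 46.2% of all tested genes, while most other cartilage lists lie around it.

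Comp, Thbs4 and Fmod are also matrix genes of tendon. Of 10 tendon and ligament genes 8 were tested. Fmod, the transcription factor Egr1 (by 0.98) and the glycoprotein Tnc (by 0.83) fell, with limma adjusted p of 0.0396, 0.0453 and 0.0496, and 5 did not pass. All 8 differences were below 0, with a median of -1.21. Among all tested genes 46.2% were below 0 and 1.45% were called lower. The tendon factor Scx differed by -0.48 (adjusted p = 0.0735). Of 10 tested genes of the cartilage surface and synovial lining, where Prg4 is known, Wif1, an inhibitor of WNT signals, fell by 1.36 (0.0267) and the others did not pass, with a median of -0.31.

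Markers of other cells were measured on the same arrays. Of 15 macrophage markers, all tested, 0 passed by limma, 14 were below 0 and 10 had an unadjusted p under 0.05. Over all tested genes 46.2% were below 0 and 29.9% had such a p. Their mean log2 level was 10.46, 9.58 and 8.77 on Ta arrays, against 10.89, 10.84 and 10.97 on Ti arrays, so that Ta replicate 1 was nearest to the Ti arrays, as for Comp and Thbs4. The 2 with the smallest p were Fcgr3a, at -2.10 (adjusted p = 0.0517), and C1qb, at -2.83 (0.0697).

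Among all tested genes 1.45% were called lower and 2.67% higher. Of 5 tested mast cell markers 4 fell, and Fcer1a, at -0.25, did not pass (limma adjusted p = 0.685). Tpsab1 and Ms4a2 of the same list were too dim to test. Kit, a growth factor receptor, was at -2.56 (0.0488). Mcpt8, a protease, was at -2.16 at its brightest probe (0.0427), and its other probe gave -0.41. Cma1, the other such gene here with 0 Ta arrays and 3 Ti arrays well above background, was at least 3.5-fold lower on Ta (0.0357). It too entered the test through the Ti arrays alone, and without it 3 of 4 markers fell. Of these 3, Cpa3, at -1.93 (0.0408), had 1 Ta array and 3 Ti arrays well above background. The Ti arrays sufficed for the filter there as well, so the Cpa3 call is not separate from the filter. Of 7 neutrophil markers 3 were tested, of which S100a8 rose by 2.95 (0.0447) and Camp by 1.68 (0.0453). S100a9, Elane, Ngp and Ltf of the same list were well above background on 0 arrays. Of 4 tested adipocyte genes Lpl fell by 2.46 (0.0453), and of 8 tested osteoblast genes Dlx5 fell by 0.96 (0.0424).

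Of 17 tested marrow stromal genes the chemokine Cxcl12 rose by 1.06 (limma adjusted p = 0.0453) and Thy1 by 0.67 (0.0439), with a median of 0.09. Of 16 cell cycle genes Cdca8 rose by 0.98 (0.044), with a median of 0.53. Of 6 endothelial, 3 erythroid and 20 ribosomal protein genes tested, 0 passed by limma, with medians of -0.45, 0.20 and -0.02. At an unadjusted p under 0.05 the counts were 2 of 6, 0 of 3 and 1 of 20, beside the same 29.9% of all tested genes. In these lists the smallest p belonged to Erg at -3.07 and Tek at -0.52 (limma adjusted p = 0.071 and 0.0878), Epor at -0.34 and Hba-a1 at 0.20 (0.201 and 0.296), and Rps4x at -0.42 and Rps14 at -0.16 (0.0805 and 0.2). The part of these differences in the differences of the SOX and matrix genes was not tested.

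Promoter sequence was matched for Sox6, Acan, Comp, Hapln1, Prg4 and Chad in a RefSeq table of the GRCr8 build. The 250 bases before the start were searched on both strands for ACAAAG or for TCAAAG, and likewise for ACAATG or for TCAATG, 4 spellings of the core that SOX proteins bind. Of the 6 promoters 3 held a match, those of Sox6, Hapln1 and Prg4, beside 39.95% of 33469 promoters in the table. The Sox6 window, at chr1:179665372-179665621 on the minus strand, held 4 matches, which start 168, 79, 69 and 13 bases before the gene's start. It is shown because 0.544% of the promoters in the table held 4 or more. Capitals mark the matches.
Sox6 promoter: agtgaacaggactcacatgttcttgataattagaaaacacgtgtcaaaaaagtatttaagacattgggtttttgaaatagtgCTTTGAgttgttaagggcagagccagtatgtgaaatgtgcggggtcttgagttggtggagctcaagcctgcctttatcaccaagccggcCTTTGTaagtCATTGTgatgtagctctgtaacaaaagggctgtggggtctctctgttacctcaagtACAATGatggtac
A match describes these letters only, and none of the arrays measured binding.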

How the data were processed

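Total RNA of 6 cultures was labelled with Cy3 and hybridised to 6 one-colour Agilent arrays. The deposited files give linear spot intensities. Background subtraction and detrending were done within each array by Agilent's software, per the file headers, and probe positions are those of build rn4. Agilent Feature Extraction 12.0 is named, with limma, in the submitters' processing notes. The deposited value table equalled the processed signal in 100% of values, and 2 files hold at most 3 significant digits.

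The log2 processed signal was scaled by each array's 75th percentile over 58717 non-control spots. Outlier spots, 0.577% to 0.841% of an array, were left out. A filter on dim probes kept those well above background on 3 or more of the 6 arrays, 25782 of 45598, and 25774 with no missing value were tested. The brightest probe stood for a gene, which gave 19755 genes. Names came from RefSeq for 30650 probes and otherwise from the file. Groups were compared with limma 3.58.1 in R 4.3.3 (lmFit and eBayes, two-sided, Benjamini-Hochberg adjustment over all genes or all probes). Standard errors are limma's moderated ones. The test was checked on simulated data.

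A fold is a bound, given as "at least", where a gene had 0 arrays of a group but 3 of the other well above background. The dim group's mean is taken after raising each log2 value to that of the array's lowest spot well above background. Probes of different sequence were not compared in level. Every gene of the set is described with every probe. Of each other list, up to 3 genes past the test are named, by size of change, or up to 2 with the smallest p. Bcan, Col2a1, Thbs4, Scx, Adamts4, Adamts5, Mmp3, Mmp13, Cpa3 and Fcer1a are named beyond this rule, after their values were seen. The genes and the 19 other lists were chosen with earlier results of these data known. The labels state no pairing by replicate number, and the samples were treated as unpaired. The correlations of same-numbered deviations were 0.06, 0.13 and -0.18. With 3 arrays per group, these values cannot decide whether the numbers pair the samples. The number of arrays limits the precision.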

Additional observations from a re-analysis of the deposited data

How the results depend on the processing

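The number of the 7 tested genes past the test was 1, and it was the same with detected-probe scaling, the stricter filter on dim probes, the mean of the probes, every probe tested alone, and values raised to the lowest signal well above background, the last of which was chosen after seeing the data. It was 2 with quantile scaling, median scaling, normexp background correction, and trend and robust settings. It was 4 with array weights, where Ta replicate 2 weighed 7.30 and the rest between 0.318 and 2.75. It was 0 without a filter, where Acan and Chad were tested too, and 0 with the replicate block. In each of these settings 5 genes had an unadjusted limma p under 0.05. Over all genes 5864 of 35220 had such a p without a filter, and 5144 of 19755 with the replicate block. With slide row as a block only Ti replicate 1 is left to compare with the Ta arrays. Leaving out each array in turn gave 0 to 3. Over all genes, the 814 calls became 0 without the filter and with slide row as a block, 8 with the replicate block, 2597 with normexp, 2083 with trend and robust settings and 10244 with array weights, and ranged from 0 to 3229 when arrays were left out. The labels state no pairing of the replicate numbers, so the block serves only as a check. Sign changes were seen for Prg4, which was -0.014 with median scaling, -0.75 with slide row as a block and -0.50 to 0.40 when arrays were left out, for Sox6 (0.0036 with normexp) and for Sox9 (-0.30 with the mean of the probes). The cause was not tested. Of 125 differences recomputed, 101 kept direction and side of the threshold. Sox6 had no value under the stricter filter, and Acan and Chad gave none under any setting that filters dim probes. Signal near background limits Sox6, Hapln1, Acan and Chad.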
